A study of Mus musculus with 6 samples.

Results

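The mRNAs described here encode 31 proteins of the neuronal synapse and of neuronal identity, and they were read in mRNA pulled down from cells of the Gli1 lineage of the adult mouse dentate gyrus. The genes were chosen by name, as a list of presynaptic and postsynaptic genes with no threshold on a measured value, although earlier results of these data were known when the list was made. All 31 were found among the 37620 genes of the count files, and all 31 were among the 15056 genes tested, which were those above 1 CPM (counts scaled to the library size) in at least 1 sample.

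Both groups carried Gli1CreERT2, a tamoxifen-activated Cre recombinase under the Gli1 gene, and 1 floxed Rpl22HA allele (RiboTag), which makes an HA-tagged ribosomal protein after recombination. The Klf9 +/+ group (3 samples) kept both normal copies of the transcription factor gene Klf9, and the Klf9 f/f group (3 samples) carried 2 floxed copies. All mice were between 2 and 3 months old and had 3 tamoxifen injections, and each sample pooled 6 dentate gyri of 3 mice, collected 4 days past the final injection. Ribosomes with the HA tag were pulled down with an antibody, and the RNA they held was sequenced. Cre acts in cells that use Gli1, which include radial glia-like neural stem cells and astrocytes, and samples of whole dentate gyrus were not used here. Nothing in the labels ties a pool to a litter or day, so a p-value measures the spread between these pools.

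Synapses pass signals in steps that these genes serve in order. Vesicles are filled with transmitter, are held at the active zone by large scaffold proteins, and fuse with the membrane when calcium acts on synaptotagmin and the SNARE proteins. Adhesion proteins span the cleft, and scaffold proteins anchor receptors on the receiving side. Mature neurons make these mRNAs at high levels and radial glia-like cells and astrocytes make most of them at low levels. Their amount in the pulldown is described here as a level of synaptic mRNA, and the cells it came from were not tested.

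Libraries fell into a pair of series by their names, YTa22 with replicates 1 and 2 of each genotype and YTa32 with replicate 3 of each. Replicate numbers are running numbers that pair no samples. Counts on genes ranged from 52188635 to 66343759 in YTa22 and were 27594529 and 21594714 in YTa32. The targeted gene Klf9 read 201, 204 and 139 CPM in Klf9 +/+ replicates 1 to 3. Klf9 f/f replicates 1 to 3 held 114, 121 and 120 CPM of it. Between the genotypes this was a log2 fold change of -0.59 ± 0.15 (SE, adjusted p = 0.844, quasi-likelihood test of edgeR). Adjustment followed Benjamini and Hochberg, as everywhere below. With an unadjusted p of 0.0032 in the same test, Klf9 passed 1.2-fold at an unadjusted p under 0.05. The log2 difference in Klf9 was -0.78 within YTa22 but -0.21 within YTa32, where each genotype has 1 library. The 9 choroid plexus markers summed to 4084 CPM in Klf9 +/+ replicate 3 and to between 108 and 991 CPM in the other libraries.

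As a sum, the synaptic mRNAs were a small and even share of every library. Together the 31 genes took 0.371% to 0.397% of the counts on genes. Scaled by edgeR's TMM method, their sum reached 3959, 4063 and 3551 CPM in the Klf9 +/+ libraries (replicates 1 to 3) against 3920, 4003 and 3670 CPM in the Klf9 f/f ones. The genotypes overlapped, and both YTa32 libraries lay below the 4 YTa22 libraries, although as an unscaled share of the counts the series overlapped. The coefficient of variation of the sum over the 6 libraries was 5.27%, while that of single genes ran from 4.15% to 53.0%. Of other lists described below, the sum of the pan-neuronal genes varied more, with a coefficient of 22.9%. An even sum was not particular to the 31 genes. The coefficient was 3.19% for a wider list of 60 other synaptic genes and 6.63% for the granule neuron markers. For the 31 genes, the ratio of the highest to the lowest library was 1.14, but 1.07 with scaling by library totals alone. In bulk RNA of this kind, fewer cells of a type and less RNA per cell cannot be told apart.

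Astrocyte mRNAs were more abundant than the synaptic mRNAs. The 13 astrocyte markers, such as the glutamate transporter genes Slc1a3 and Slc1a2, summed to between 13552 and 20232 CPM, which was 3.34 to 5.51 times the sum of the 31 synaptic genes in the same library. The 11 radial glia-like markers summed to between 3621 and 5432 CPM, 1.01 to 1.37 times the synaptic sum. Per kilobase of exon, which allows levels of different genes to be compared, the median gene stood at 13.4 CPM per kb among the synaptic genes, 135 among the astrocyte markers and 147 among the radial glia-like markers. Other glial lists stood below the synaptic genes on that scale, at 9.46 CPM per kb for oligodendrocyte, 8.79 for microglia and 2.19 for oligodendrocyte precursor markers. Neuron markers outside the list were also present. The 16 pan-neuronal genes, among them the tubulin gene Tubb3, summed to between 1546 and 2699 CPM. The 10 granule neuron markers summed to between 497 and 601 CPM and the 8 immature neuron markers to between 587 and 2434 CPM. The 9 GABAergic interneuron markers summed to between 85.0 and 127 CPM. Per kilobase, the median gene of the pan-neuronal and immature neuron lists stood at 30.9 and 30.2 CPM per kb. That of the granule neuron and GABAergic interneuron lists stood at 6.38 and 2.74, below the synaptic genes.

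**Figure D1:**
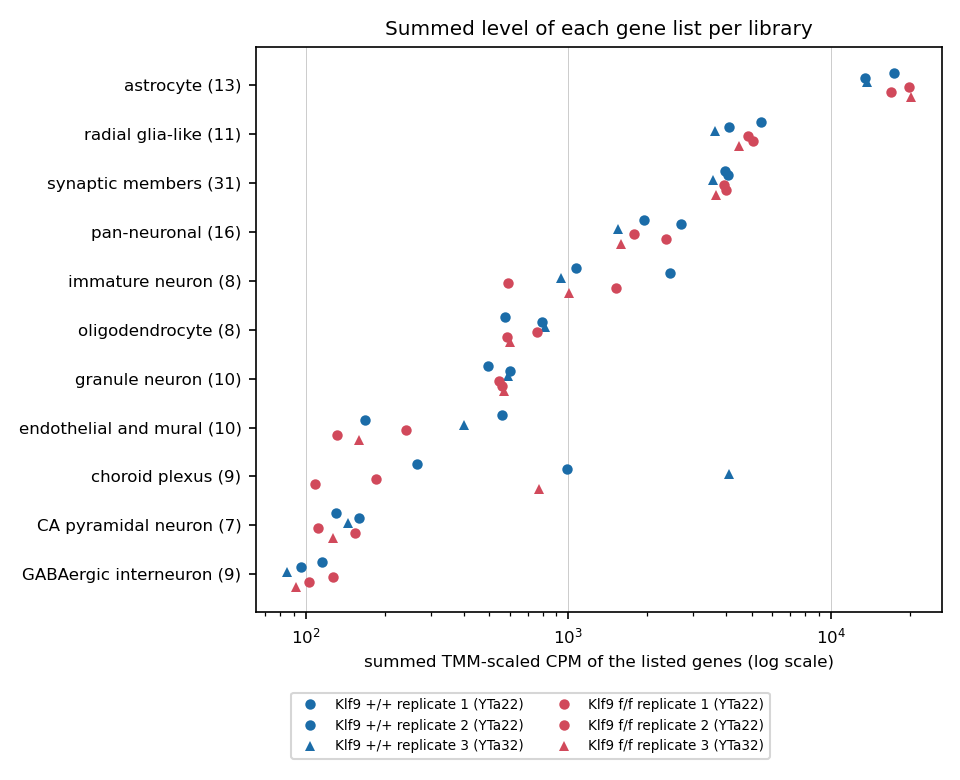
Summed TMM-scaled CPM of each gene list (x axis, log scale) for each of the 6 libraries (points, blue for Klf9 +/+ and red for Klf9 f/f, circles for YTa22 and triangles for YTa32). The number of genes in a list is in brackets. The 31 synaptic genes sit between 3551 and 4063 CPM, below the astrocyte list in every library, and the choroid plexus list runs from 108 to 4084 CPM.

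Among the 31 genes the level per kilobase of exon ran over about 2 orders of size, from 0.967 CPM per kb for Dlg2 to 98.9 CPM per kb for Vamp2. No gene was near the counting limit, since the lowest count of any of them in a library was 195 reads and all 31 were above 1 CPM in all 6 libraries. Levels differed by role. The fusion genes had a median of 45.3 CPM per kb and the vesicle genes one of 32.7, while the postsynaptic scaffolds had a median of 2.06 and the active zone scaffolds Bsn and Pclo one of 2.66.

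The machinery of vesicle fusion held the highest levels. Vamp2, the vesicle SNARE synaptobrevin 2, read 361, 433 and 347 CPM in the Klf9 +/+ libraries (replicates 1 to 3) against 373, 399 and 347 CPM in the Klf9 f/f ones, and was at the 95.3rd percentile of all genes tested per kilobase. Rab3a, a small GTPase of synaptic vesicles, averaged 98.4 CPM per kb, a level that its spread between libraries does not separate from that of Vamp2. Snap25, a SNARE of the plasma membrane, was at 46.8 CPM per kb, and Cplx1 and Cplx2, the complexins that clamp the SNARE complex, were at 52.9 and 45.3. Syt1, the calcium sensor for fast release, was at 16.9 CPM per kb. Stx1a, a syntaxin of the plasma membrane, was lower at 7.47, and the priming genes Unc13a and Rims1 were at 4.24 and 2.58.

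Vesicle proteins were led by Slc17a7, which encodes the vesicular glutamate transporter VGLUT1. Slc17a7 read 250, 203 and 219 CPM in the Klf9 +/+ libraries (replicates 1 to 3) against 247, 225 and 237 CPM in the Klf9 f/f ones. Its coefficient of variation was 7.72% and the genotypes overlapped. Syn2 and Syn1, synapsins that tether vesicles in reserve, followed at 56.5 and 40.7 CPM per kb, and the vesicle membrane protein gene Syp was at 24.7. Syp and Bsn are less certain than the others, since 16.8% and 11.4% of their exon bases overlap other annotated genes and the counts did not use strand. Sv2a was at 13.9 CPM per kb and its paralog Sv2b at 1.29, the 19.3rd percentile.

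Adhesion and postsynaptic genes stood lower in the main. The neuroligin genes Nlgn3 and Nlgn1 stood at 10.3 and 5.55 CPM per kb, and the neurexin gene Nrxn3 at 1.44. Dlgap1, a scaffold protein of the postsynaptic density, was at 13.4 CPM per kb and was the steadiest of the 31 genes. Its 6 libraries lay between 211 and 236 CPM with a coefficient of variation of 4.15%. Shank1, Shank2 and Shank3 encode related master scaffolds of the same structure and stood at 12.7, 5.64 and 1.37 CPM per kb. Homer1, which links Shank proteins to metabotropic receptors, was at 2.06 CPM per kb, and Dlg4 and Dlg2, which encode PSD-95 and PSD-93, were at 1.78 and 0.967.

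The CaM kinase II genes Camk2b and Camk2a, subunits of a kinase that is very abundant at excitatory synapses, were at 38.2 and 29.4 CPM per kb. Camk2a ranged from 149 CPM in Klf9 f/f replicate 2 to 275 CPM in Klf9 +/+ replicate 1. Rbfox3, the gene of the neuronal nuclear protein NeuN, and Calb1, the calcium buffer calbindin of mature granule neurons, stood at 29.4 and 13.5 CPM per kb. Both marker genes of mature neurons were thus read in every library, at levels above the median of all genes per kilobase.

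**Figure D2:**
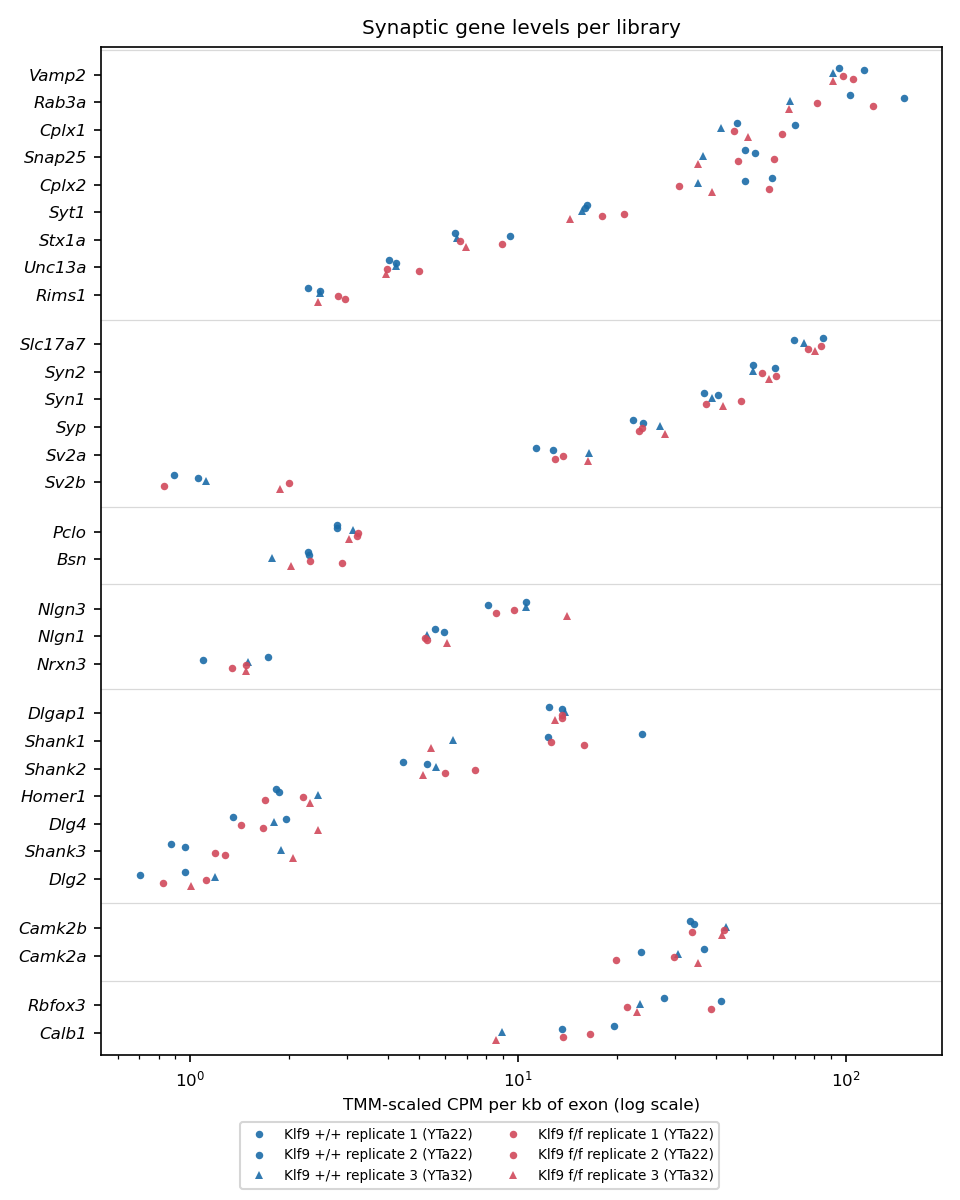
Level of each synaptic gene in TMM-scaled CPM per kb of exon (x axis, log scale) in the 6 libraries (points, blue for Klf9 +/+ and red for Klf9 f/f, circles for YTa22 and triangles for YTa32). Grey lines divide the genes by role, from fusion genes at the top to neuronal identity at the bottom. Vamp2 and Rab3a reach the highest levels and Dlg2 the lowest mean, at 0.967 CPM per kb.

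Deletion of Klf9 was aimed at the stem cells. The comparison of Klf9 f/f with Klf9 +/+ asks whether synaptic mRNA in the pulldown differed with it. None of the 31 genes passed either threshold. At an adjusted p under 0.05, 0 of 31 were called, beside 0.0% of all genes tested. At 1.2-fold with an unadjusted p under 0.05, 0 of 31 were called, beside 4.32% of all genes (1.82% higher and 2.5% lower in Klf9 f/f). The number with an unadjusted p under 0.05 at any size of change was also 0 with edgeR's quasi-likelihood test, and DESeq2 and the likelihood-ratio test of edgeR called 0 of 31 at both thresholds. With no filter on low counts Sv2b passed the second threshold. The log2 fold change was above 0 for 22 genes and below 0 for 9, with a median of 0.04. All genes tested had a median of 0.00084, with 7553 above 0 and 7503 below 0.

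The largest estimate was that of Sv2b. Sv2b read 5.07, 6.02 and 6.37 CPM in the Klf9 +/+ libraries (replicates 1 to 3) against 11.4, 4.75 and 10.7 CPM in the Klf9 f/f ones. The groups overlapped, since Klf9 f/f replicate 2 was the lowest library of all. Its log2 fold change was 0.61 ± 0.31 (SE, adjusted p = 1.00, edgeR). Without that library the log2 fold change of Sv2b was 0.92 and it passed 1.2-fold at an unadjusted p under 0.05, while without Klf9 f/f replicate 1 it was 0.20.

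The estimates of the Shank genes differed in sign, and none passed either threshold. Shank3 read 7.76, 8.56 and 16.9 CPM in the Klf9 +/+ libraries (replicates 1 to 3) against 10.6, 11.3 and 18.3 CPM in the Klf9 f/f ones, so it was higher in Klf9 f/f within both series. Its log2 fold change was 0.32 ± 0.17 (SE, adjusted p = 1.00, edgeR). Shank2 had a log2 fold change of 0.26 ± 0.17 (SE), with a difference of 0.45 in YTa22 and -0.14 in YTa32, and ranged from 0.11 to 0.45 with a library left out. Shank1 had one of -0.31 ± 0.23 (SE), which ranged from -0.53 to 0.024 with a library left out, so its sign was not stable. Without Klf9 +/+ replicate 2 Shank1 passed 1.2-fold at an unadjusted p under 0.05.

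Several abundant genes had narrow intervals. Vamp2 had a log2 fold change of -0.03, which its 95% interval places between 0.795-fold and 1.21-fold. Slc17a7 lay at 0.07, between 0.851-fold and 1.30-fold, and Snap25 at 0.03, between 0.817-fold and 1.28-fold. Syn2 had a log2 fold change of 0.09 ± 0.13 (SE). The neuronal identity genes Rbfox3 and Calb1 lay at -0.15 and -0.11, with standard errors of 0.23 and 0.17. Over all 31 genes, the interval of 30 lay within a 2-fold change in either direction and that of 22 within 1.5-fold, while that of 0 lay within 1.2-fold. A change of 1.2-fold in at least one direction therefore lay inside the interval of every gene.

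Directions within the series were mixed. The difference between the genotypes had the same sign in YTa22 and YTa32 for 11 of the 31 genes. The share over all genes was not computed, so this count cannot be set against it. Bsn and Shank3 were higher in every Klf9 f/f library than in every Klf9 +/+ library of the same series, which is 2 of 31 genes beside 7.78% of all genes tested. Bsn, the active zone scaffold bassoon, had a log2 fold change of 0.19 ± 0.14 (SE). In the opposite direction the count was 0 of 31, beside 5.53% of all genes. The summed level in Klf9 f/f was 0.988 times that of Klf9 +/+ in YTa22 and 1.03 times in YTa32. A difference between the series in the effect of genotype was tested as an interaction and was called for 0 of 31 genes, beside 0.0% of all genes, and 0 of 31 had an unadjusted p under 0.05 for it in edgeR. The smallest unadjusted p was that of Shank2, which had an interaction of -0.59.

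A wider list of 60 other synaptic genes gave the same count. Of these, 0 of 60 passed either threshold in edgeR. The log2 fold change was above 0 for 43 (beside 7553 of all 15056 genes) and below 0 for 17 (beside 7503), with a median of 0.06. The smallest unadjusted p was that of Rims3, an active zone gene, with a log2 fold change of 0.41 ± 0.19 (SE, adjusted p = 1.00, edgeR). Dlgap3, Dnm1 and Camk2g followed with 0.28, 0.24 and 0.20. Several lists of other cell types had larger estimates than the synaptic genes. All 9 choroid plexus markers had a log2 fold change below 0, with a median of -2.28, and all 9 passed 1.2-fold with an unadjusted p under 0.05, beside 2.5% of all genes. All 10 endothelial and mural markers lay below 0 too, with a median of -0.98, and 4 of 10 passed. All 13 astrocyte markers had a log2 fold change above 0, with a median of 0.39, and 5 of 13 passed 1.2-fold with an unadjusted p under 0.05, beside 1.82% of all genes. None of the markers of these 3 lists had an adjusted p under 0.05. Of the neuron lists, 7 of 8 immature neuron markers lay below 0, with a median of -0.33. Their summed level in Klf9 f/f was 0.603 times that of Klf9 +/+ in YTa22 and 1.08 times in YTa32. Pan-neuronal and granule neuron markers had medians of -0.03 and 0.10, and 0 genes of these neuron lists passed either threshold. The part of any of these lists in the synaptic estimates was not tested.

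**Figure D3:**
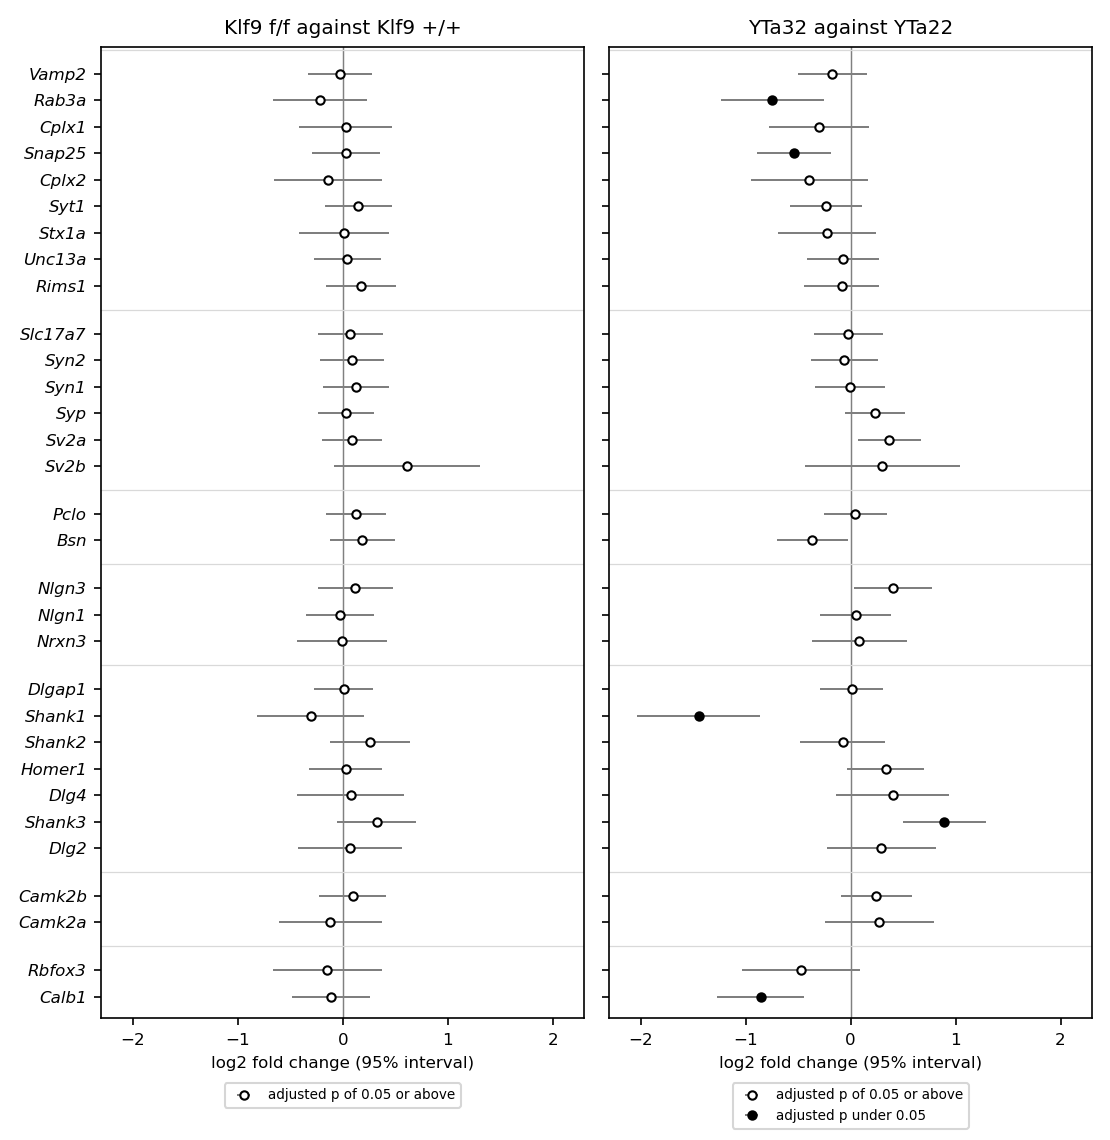
Log2 fold change (x axis) with its 95% interval for each synaptic gene, for Klf9 f/f against Klf9 +/+ on the left and for the YTa32 against the YTa22 libraries on the right. Filled points have an adjusted p under 0.05 in edgeR's quasi-likelihood test. No point is filled on the left, and 5 are filled on the right (Snap25, Rab3a, Shank1 and Calb1 below 0, Shank3 above 0).

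More synaptic genes differed between the library series than between the genotypes, and the genes called included a SNARE, a vesicle GTPase and a pair of Shank scaffolds. Between YTa32 and YTa22, with genotype as a term, 5 of 31 genes (16.1%) had an adjusted p under 0.05, beside 29.5% of all genes tested, with 1 higher and 4 lower in YTa32 beside 12.9% and 16.6%. At 1.2-fold with an unadjusted p under 0.05, 8 of 31 passed, beside 43.1% of all genes, with 3 higher and 5 lower beside 20.7% and 22.4%. The share called among the synaptic genes was therefore below the share over all genes at both thresholds. YTa32 holds 1 library of each genotype. The share of reads that HTSeq found on no counted feature was 10.9% and 12.2% in it against 6.33% to 7.66% in YTa22. The part of this, of depth and of choroid plexus RNA in the synaptic genes was not tested. The calls moved with those of all genes when a library was left out. Without Klf9 +/+ replicate 3, 0 of 31 genes had an adjusted p under 0.05, beside 0.569% of all genes, and without Klf9 f/f replicate 3 also 0, beside 3.76%. Without Klf9 f/f replicate 1 the count was 10 of 31, beside 37.0%.

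Of the fusion genes, Snap25 and Rab3a were lower in YTa32. Snap25 (chromosome 2 of mm9, 136539189 to 136608164, plus strand) stood at 334, 359, 408 and 318 CPM in the YTa22 libraries (Klf9 +/+ replicates 1 and 2, then Klf9 f/f replicates 1 and 2) and at 248 and 240 CPM in YTa32. Both YTa32 libraries were below all of YTa22. Its log2 fold change was -0.54 ± 0.16 (SE, adjusted p = 0.0303, edgeR). Rab3a (chromosome 8, 73278578 to 73282576, plus strand) stood at 229, 334, 182 and 269 CPM in YTa22 and at 150 and 149 CPM in YTa32. It fell by 0.75 on the log2 scale (SE 0.22, adjusted p = 0.0309, edgeR). With a library left out, the log2 fold change ranged from -0.90 to -0.57 for Rab3a and from -0.60 to -0.45 for Snap25. Both calls depended on single YTa22 libraries. Neither gene had an adjusted p under 0.05 without Klf9 +/+ replicate 2, and Rab3a did not without Klf9 f/f replicate 2. All 9 fusion genes had a log2 fold change below 0, of which these 2 passed the adjusted threshold, but with scaling by library totals alone 7 of 9 lay below 0. With that scaling Snap25 and Rab3a no longer passed it, at -0.38 and -0.59, and Vamp2, at -0.17 ± 0.14 (SE), did not pass in either case.

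Calb1 (chromosome 4, 15808411 to 15835211, plus strand) was lower as well. It stood at 94.7, 65.7, 80.2 and 66.2 CPM in YTa22 and at 43.2 and 41.4 CPM in YTa32, without overlap. It fell by 0.86 on the log2 scale (SE 0.18, adjusted p = 0.00996, edgeR).

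The largest shifts between the series were in Shank1 and Shank3, in opposite directions. Shank1 (chromosome 7, 51565623 to 51613721, plus strand) stood at 198, 102, 104 and 131 CPM in the YTa22 libraries in the same order and at 52.6 and 45.0 CPM in YTa32. It fell by 1.45 on the log2 scale (SE 0.26, adjusted p = 0.00595, edgeR). Shank3 (chromosome 15, 89330054 to 89390692, plus strand) stood at 7.76, 8.56, 10.6 and 11.3 CPM in YTa22 and at 16.9 and 18.3 CPM in YTa32. It was higher by 0.89 on the log2 scale (SE 0.17, adjusted p = 0.00738, edgeR). Neither gene's series overlapped, and both kept their direction under every scaling tried. The longest coding transcripts of both were GC-rich, at 62.9% for Shank1 and 62.4% for Shank3.

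In edgeR with TMM scaling, Sv2a, Nlgn3 and Bsn passed only the threshold of 1.2-fold with an unadjusted p under 0.05. Their log2 fold changes were 0.37, 0.41 and -0.37, and their adjusted p-values in edgeR were 0.0632, 0.0929 and 0.0920. These calls moved with the scaling. With library totals alone, Sv2a, Nlgn3 and Syp had an adjusted p under 0.05, and 6 of 31 genes did, beside 33.0% of all genes. Sv2a also did with upper-quartile scaling and with DESeq2. Bsn passed neither threshold with library totals alone or upper-quartile scaling. The log2 fold change of Nlgn3 moved with single libraries, at 0.18 without Klf9 f/f replicate 3 and 0.64 without Klf9 +/+ replicate 3. Slc17a7 and Dlgap1 lay at -0.02 and 0.01, and the sign of Slc17a7 changed with the scaling. Syp had a log2 fold change of 0.23 ± 0.13 (SE). Counted by overlap alone, 5 genes (Homer1, Nlgn3, Shank3, Sv2a and Syp) were higher in both YTa32 libraries than in all YTa22 libraries, beside 25.5% of all genes, and 7 (Bsn, Calb1, Rab3a, Shank1, Snap25, Syt1 and Vamp2) were lower, beside 28.3%. Against the log2 of a gene's merged exon length, the log2 fold change between the series had a Pearson's r of 0.22 across the 31 genes. It was 0.38 across 14000 genes, where genes are not independent replicates.

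In the wider list, 18 of 60 genes had an adjusted p under 0.05 in this comparison, beside 29.5% of all genes, 14 of them higher and 4 lower in YTa32. Rab3c, a paralog of Rab3a, lay at -1.11 ± 0.21 (SE). Nrxn2 and Iqsec2, an adhesion and a postsynaptic gene, lay at 0.93 and 0.78, with standard errors of 0.16 and 0.14.

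Within YTa22, where each genotype has 2 libraries, the synaptic genes did not follow one order. Klf9 f/f replicate 1 was the highest of the 4 libraries for 10 of the 31 genes (32.3%, beside 29.9% of all genes tested) and Klf9 +/+ replicate 2 for 8 (25.8%, beside 24.4%). Klf9 +/+ replicate 1 was the highest for 7 (22.6%, beside 25.3%) and Klf9 f/f replicate 2 for 6 (19.4%, beside 20.4%). Klf9 +/+ replicate 1 was the lowest for 13 of 31 (41.9%), beside 26.7% of all genes tested. The 8 genes highest in Klf9 +/+ replicate 2 were Rab3a, Cplx1, Stx1a, Vamp2, Rbfox3, Dlg4, Nlgn1 and Syp. Of the 8 immature neuron markers, 7 were also highest there. The same library was the lowest for 8 other synaptic genes (25.8%, beside 23.0% of all genes tested). These were Calb1, Dlg2, Nlgn3, Nrxn3, Pclo, Shank1, Slc17a7 and Syt1. Of the 8 synaptic genes highest in Klf9 +/+ replicate 2, Rab3a, Cplx1, Rbfox3 and Nlgn1 were lowest in Klf9 f/f replicate 1. Stx1a, Vamp2, Dlg4 and Syp were lowest in Klf9 +/+ replicate 1. Rbfox3 and Cplx1 are given as examples, chosen after their values were seen. In the order Klf9 +/+ replicate 1, Klf9 +/+ replicate 2, Klf9 f/f replicate 1 and Klf9 f/f replicate 2, Rbfox3 read 162, 242, 125 and 226 CPM. Cplx1 read 102, 153, 99.9 and 139 CPM. Klf9 f/f replicate 1 was the lowest for 6 of the 31 synaptic genes (19.4%), beside 29.5% of all genes. It was also the lowest for all 8 immature neuron markers. The immature neuron list, which includes Neurod1 and Dcx, summed to 1068, 2434, 587 and 1523 CPM in that order. Its part in these levels was not tested.

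The spread of a gene over all 6 libraries had a median coefficient of variation of 16.5% among the 31 genes and of 21.8% among all genes tested, or 18.7% among the 11017 of them at or above the lowest mean CPM of the 31. Shank1 had the largest, at 53.0%, and then Sv2b and Shank3 at 39.4% and 35.6%.

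**Figure D4:**
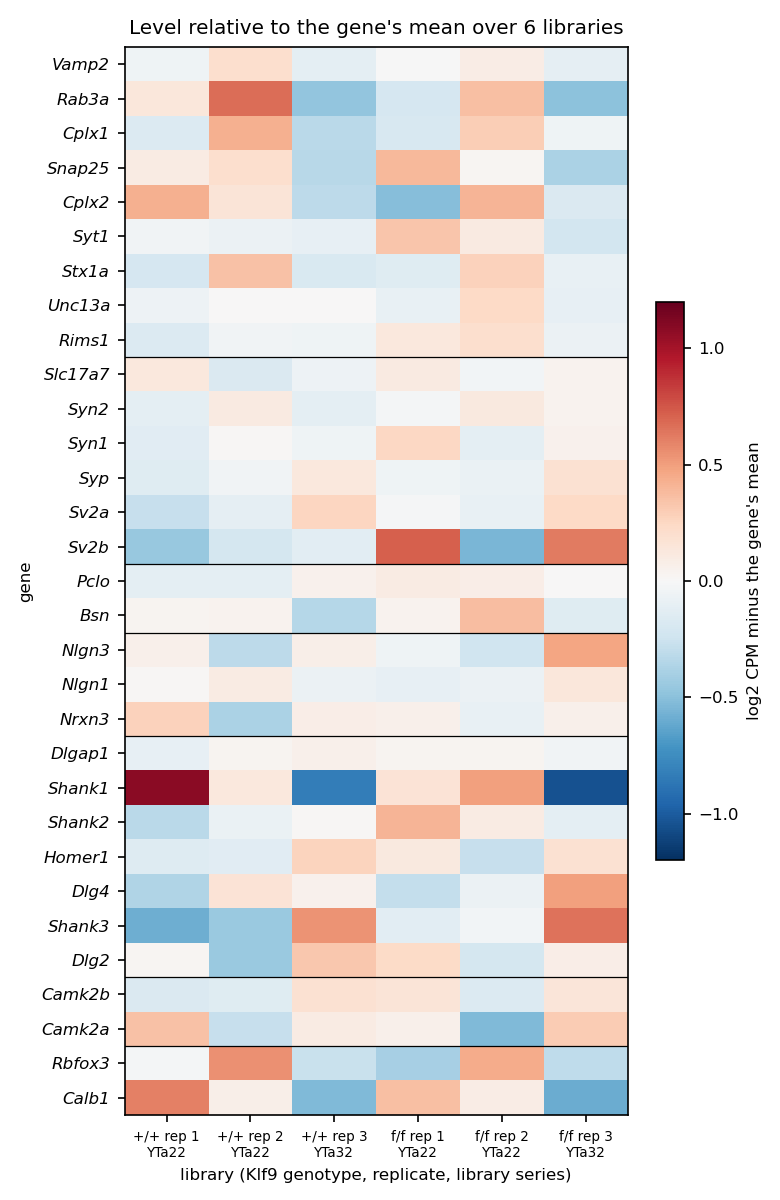
Log2 CPM of each synaptic gene in each of the 6 libraries (columns, with genotype, replicate and library series) after subtracting the gene's mean over the libraries (colour, red above and blue below). Black lines divide the genes by role. The series stand out in Shank1, Shank3 and Calb1, and Rab3a, Cplx1, Stx1a and Rbfox3 are highest in Klf9 +/+ replicate 2.

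The upstream sequences bear on these genes because many neuronal genes carry an RE1 element, bound by the repressor REST outside neurons, and because Klf9 is a zinc finger protein that binds GC-rich boxes. RefSeq promoter windows (GRCm38.p6, a later build than mm9) were matched by symbol for 24 of the 31 genes, and not for Snap25, Vamp2, Nlgn3, Shank1, Shank2, Camk2a and Calb1. The 250 bases before the start were searched on both strands. The left arm of RE1, TTCAGCACC, was found in Syn1 and Nlgn1, which is 2 of 24 genes (8.33%), beside 0.348% of 27025 symbols with a window. The right arm, GACAGCGCC, was found in 0 of 24 genes there, beside 0.285% of all symbols. With the 50 bases after the start included, Unc13a also held the left arm (3 of 24 genes, beside 0.433% of all symbols) and was the only one of the 24 with the right arm. Syn1 was the only one with a CRE, TGACGTCA, in the upstream bases, beside 1.77% of all symbols. The stretches that hold the left arm are these, with the match in capitals.
Syn1: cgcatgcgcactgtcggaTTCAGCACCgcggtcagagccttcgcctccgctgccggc
Nlgn1: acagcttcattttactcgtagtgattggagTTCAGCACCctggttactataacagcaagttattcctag
The first lies at chrX:20921112-20921168 and the second at chr3:26154101-26154169, both on the minus strand.

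The GC box GGGCGG was found in 14 of 24 genes (58.3%), beside 35.4% of all symbols. The stretches of a pair of fusion genes are printed to show it, with the box, or its reverse complement, in capitals.
Stx1a: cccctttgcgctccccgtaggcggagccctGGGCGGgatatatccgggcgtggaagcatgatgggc
Rab3a: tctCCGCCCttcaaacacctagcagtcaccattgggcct
They lie at chr5:135023378-135023443 and chr8:70754453-70754491, both on the plus strand. In the comparison of Klf9 f/f with Klf9 +/+, the median log2 fold change was 0.08 for the 14 genes with the box and 0.02 for the 10 without it, and 0 genes of either kind were called. A match says only that these letters are in the window. The shares over all 27025 symbols were not limited to the genes tested here, so they are not a matched background for any of these motifs.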

How the data were processed

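The deposited files hold whole-number counts per gene that the authors made, by their methods, from reads aligned to mm9 with STAR and assigned by HTSeq with no use of strand or normalization. The 37620 genes were kept, and 5 summary lines of HTSeq entered no test. Names came from GENCODE M1, which lacked 415 of the identifiers.

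The members and the lists were chosen with earlier results of these data known. The text names all 31 members, Klf9 and up to 4 genes of another list per comparison, and any other choice is marked. Genes passing 1 CPM in 1 or more samples (15056) were scaled by TMM. Genotype and library series (read from library names) were the terms of a quasi-likelihood fit (glmQLFit, glmQLFTest) in edgeR 4.0.16, R 4.3.3, which left 3 residual degrees of freedom. Calls used a Benjamini-Hochberg adjusted p under 0.05, and separately 1.2-fold with an unadjusted p under 0.05. The within-series log2 differences used a prior count of 2.0. The genotype and series tests of this fit were checked first on simulated counts, with a dispersion shared by all genes and changes larger than 1.2-fold. The likelihood-ratio test and DESeq2 were not checked in this way. Alternatives were the likelihood-ratio test, DESeq2 1.42.0, 2 other scalings, 2 other filters, fits without a term, YTa22 alone and each library left out. One gene of the wider synaptic list is not reported here by name.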

Additional observations from a re-analysis of the deposited data

How the results depend on the processing

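For Klf9 f/f against Klf9 +/+, 0 of the 31 synaptic genes had an adjusted p under 0.05 in any alternative tried, and their count past 1.2-fold with an unadjusted p under 0.05 was 1 (Sv2b) with no filter and 0 to 1 with each library left out. Over all genes, the count at that second threshold was 650, and it was 365 in YTa22 alone, 1439 with no filter, 213 without the series term and 385 to 849 with a library left out. At an adjusted p under 0.05 it was 0, and it was 39 with DESeq2, 13 in YTa22 alone, 58 with the likelihood-ratio test, 334 with no filter and 0 to 15 with a library left out.

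Between the library series, the count of synaptic genes at an adjusted p under 0.05 was 0 to 10 with each library left out, and past the second threshold 4 to 11. The counts over all genes were 84 to 5556 and 3127 to 7253, and that of the wider synaptic list at an adjusted p under 0.05 was 0 to 22. Scaling by library totals alone moved the median of all genes from 0.03 to 0.19 and the share of higher genes among those at an adjusted p under 0.05 from 43.8% to 63.3%. The ratio of the highest to the lowest summed synaptic level was 1.07 under it and 1.08 with upper-quartile scaling. Slc17a7 changed sign between the series, to 0.14 with library totals alone and to 0.037 with upper-quartile scaling, and with a library left out it ranged from -0.061 to 0.048 and Dlgap1 from -0.047 to 0.096. For genotype, leaving out a library gave Calb1 -0.24 to 0.063, Rbfox3 -0.40 to 0.078, Shank1 -0.53 to 0.024, Slc17a7 -0.0050 to 0.17, Snap25 -0.088 to 0.12 and Vamp2 -0.093 to 0.053. The cause of these changes was not tested. No paired analysis was possible because the replicate numbers are running numbers that pair no samples. YTa32 is the shallower series, with 1 library of each genotype.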

Other observations

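GABAergic interneuron markers were scarce in the pulldown, and the library series differed in them. Gad1, the main enzyme of GABA synthesis, stood between 37.0 and 56.3 CPM, and Slc32a1, the vesicular GABA transporter, between 0.302 and 2.09 CPM. Of the 4 neuropeptide genes, Npy, Cck and Sst were lower in YTa32. Npy stood at 16.0, 12.8, 13.5 and 14.6 CPM in YTa22 (Klf9 +/+ replicates 1 and 2, then Klf9 f/f replicates 1 and 2) and at 5.42 and 6.68 CPM in YTa32, a difference of -1.24 ± 0.21 (SE) on the log2 scale (adjusted p = 0.00525, edgeR). Cck and Sst lay at -1.29 and -1.26, with standard errors of 0.26 and 0.27, while Vip, at 0.588 to 1.70 CPM, lay at -0.74 ± 0.45 (SE, adjusted p = 0.234, edgeR). Slc32a1 lay at 2.24 ± 0.42 (SE) and is uncertain, since its level was low, the counts did not use strand and 24.8% of its exon bases overlap another annotated gene. Of the 9 markers, 4 had an adjusted p under 0.05 in that comparison (44.4%, beside 29.5% of all genes), 3 lower and 1 higher, and 0 of 9 did between the genotypes. None of these 4 genes passed without Klf9 +/+ replicate 3, and Npy and Cck passed without Klf9 f/f replicate 3 while Sst and Slc32a1 did not.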
